A study of Homo sapiens with 16 samples.

Results

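The 48 genes described here are established targets of ATF4, the transcription factor of the amino acid response, together with ATF4 itself. They were taken by name and fall into 6 role groups: 12 stress regulators, 5 secreted factors and a receptor, 8 amino acid transporters, 5 enzymes of serine, glycine and folate-linked synthesis, 5 enzymes of other amino acid synthesis, and 13 genes of transfer RNA (tRNA) charging and export. They are 48 of the 20046 protein-coding genes in the annotation, and the other 19998 were used as the background. The measure was acetylation of histone H3 at lysine 27 (H3K27ac), a mark of active promoters and enhancers, in LX-2 cells, an established line derived from human hepatic stellate cells. Control cells received the DMSO vehicle for 24 h, and treated cells received 50 µM OSMI-1, an inhibitor of O-GlcNAc transferase (OGTi), for 24 h, all in culture medium with 5% fetal bovine serum. Each arm had 4 H3K27ac libraries, and the other 8 of the 16 samples were input DNA and column purified chromatin libraries that are not analysed here. The values are 2 lists of regions on hg38, 3623 that gained H3K27ac under OGTi and 3507 that lost it, with no level, fold change or replicate value for any region. A gene without a listed region may therefore be unmarked, marked equally in both arms or changed without passing the threshold, and the identity of the cells could not be checked against markers. All results come from 1 cell line, 1 dose and 1 time point.

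ATF4 is a basic leucine zipper (bZIP) factor whose messenger RNA is translated more efficiently when eIF2α is phosphorylated. The kinases GCN2, PERK, PKR and HRI phosphorylate eIF2α upon amino acid shortage, endoplasmic reticulum stress, viral RNA and haem shortage or mitochondrial stress, respectively. ATF4 pairs with C/EBP proteins on a composite element, which joins part of a C/EBP site to part of an ATF site, and drives genes for amino acid uptake, synthesis and loading onto tRNA. The amount of ATF4 is thus set to a large extent by translation.

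The sequences that carry the pattern described below are the copies of the composite element TGATGCAA within gained regions at the starts of these genes. Each is printed 5′ to 3′ on the strand that reads TGATGCAA, from hg38, as 30 bases with the element in capitals. Distances to a start are those of the element's first base in the direction of the gene. The first set is shown because, at 5 aminoacyl-tRNA synthetase genes, the element lies within 13 bp of the start of the MANE Select transcript, the reference transcript agreed for each gene. It lies at chr12:57488064-57488071 (minus strand) at MARS1, 4 bp upstream of the start, and at chr9:92293703-92293710 (plus strand) at IARS1, 13 bp upstream. It lies at chr11:3057418-3057425 (plus strand) at CARS1, 2 bp upstream, at chr1:32817348-32817355 (minus strand) at YARS1, 3 bp downstream, and at chr5:33440967-33440974 (minus strand) at TARS1, 2 bp downstream. At MARS1 and CARS1 the element spans the start itself.
MARS1: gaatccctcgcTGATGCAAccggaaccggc
IARS1: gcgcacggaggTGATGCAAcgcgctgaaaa
CARS1: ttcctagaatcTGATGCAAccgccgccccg
YARS1: ccgagcccagcTGATGCAAcctggctggac
TARS1: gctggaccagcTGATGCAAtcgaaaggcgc

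A second set comes from genes with more than 1 copy, or from the serine pathway. At TRIB3 the element occurs 3 times on the minus strand, at chr20:380892-380899, chr20:380925-380932 and chr20:380958-380965, with neighbouring copies starting 33 bp apart and the same 30 bases at each. At SLC7A11 a copy on the plus strand (chr4:138242418-138242425) and a copy on the minus strand (chr4:138242437-138242444) start 19 bp apart. SHMT2 has a similar pair 22 bp apart, of which the plus-strand copy (chr12:57230170-57230177) is shown, followed by the copies at PSAT1 (chr9:78297392-78297399, minus strand) and PHGDH (chr1:119712797-119712804, plus strand).
TRIB3, each of 3 copies: cccggtccgggTGATGCAAaccggagctaa
SLC7A11, plus-strand copy: cagctaaatgaTGATGCAAattctccaggt
SLC7A11, minus-strand copy: tctcatgtggcTGATGCAAacctggagaat
SHMT2: agccctgcagaTGATGCAAccgagcttcac
PSAT1: gctgtgcacgcTGATGCAAagcgcctaggg
PHGDH: cgcccctcgtcTGATGCAAgactgctccgt

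Another set is shown for contrast, since these members carry the same element near their start but had no gained region there. The element lies 21 bp upstream of the MANE Select start of ATF3 (chr1:212608740-212608747, plus strand), 89 bp upstream of that of PYCR1 (chr17:81937382-81937389, minus strand) and 14 bp downstream of that of NARS1 (chr18:57621815-57621822, minus strand).
ATF3: tataaaaggggTGATGCAAcgctctccaag
PYCR1: gggcgcgcagaTGATGCAAccgctctggcg
NARS1: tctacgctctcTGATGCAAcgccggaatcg

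Promoters of 4 members follow, as the 250 bases before the RefSeq start on the gene's own strand, because their H3K27ac lists and motifs differ. CHAC1 (chr15:40953221-40953470, plus strand) had a gained region over the element, which reads TTGCATCA on this strand. PPP1R15A (chr19:48872171-48872420, plus strand) had a gained region over a cyclic AMP response element, TGACGTCA, instead. ASNS (chr7:97872409-97872658, minus strand) holds the variant TGATGAAA at positions -68 to -61, and its gained region ended inside these bases. FGF21 (chr19:48755274-48755523, plus strand) holds the composite element at positions -54 to -47 and had no gained region within 2500 bp. Capitals mark the elements. The sequences are those of RefSeq on GRCh38.p14, in which 39 of the 48 members had an entry, and all 39 equalled hg38 at their coordinates.
CHAC1: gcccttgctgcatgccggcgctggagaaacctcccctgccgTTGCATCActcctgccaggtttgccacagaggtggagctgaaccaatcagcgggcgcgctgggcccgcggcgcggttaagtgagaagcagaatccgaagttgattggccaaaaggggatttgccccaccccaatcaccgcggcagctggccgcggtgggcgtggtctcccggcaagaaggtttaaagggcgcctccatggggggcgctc
PPP1R15A: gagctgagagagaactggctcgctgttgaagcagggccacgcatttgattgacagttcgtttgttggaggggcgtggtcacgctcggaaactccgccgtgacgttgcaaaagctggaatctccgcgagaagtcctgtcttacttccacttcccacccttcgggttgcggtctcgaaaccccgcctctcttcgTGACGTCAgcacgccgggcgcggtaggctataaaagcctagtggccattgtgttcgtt
ASNS: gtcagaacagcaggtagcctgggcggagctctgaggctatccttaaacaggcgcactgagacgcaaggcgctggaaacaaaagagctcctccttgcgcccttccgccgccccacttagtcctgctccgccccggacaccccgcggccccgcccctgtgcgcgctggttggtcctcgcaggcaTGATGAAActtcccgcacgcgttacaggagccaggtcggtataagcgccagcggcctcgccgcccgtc
FGF21: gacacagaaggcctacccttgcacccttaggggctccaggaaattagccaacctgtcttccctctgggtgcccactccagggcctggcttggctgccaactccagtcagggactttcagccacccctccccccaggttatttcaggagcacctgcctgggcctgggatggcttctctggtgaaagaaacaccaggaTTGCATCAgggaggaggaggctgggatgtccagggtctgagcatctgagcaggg

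H3K27ac was gained at the start of 25 of the 48 ATF4 response genes and was lost at the start of none of them. A gained region lay within 2500 bp of the 5′ end of the gene for 52.1% of members, against 6.28% of the other protein-coding genes (1256 of 19998). A lost region lay there for 0 of 48, against 2.03% (405 genes). With 48 genes, a share near 2.03% amounts to about 1 gene, so the count of 0 lost is close to the background, whereas 25 gained is far from it. The background includes genes that may carry no H3K27ac, and the lists do not allow it to be limited to marked promoters. Among CpG-rich promoters the gained shares were 57.1% of 35 members and 8.95% of other genes. Among genes with any listed region within 100 kb they were 65.8% of 38 members and 14.5% of 8654 other genes. This filter draws on the same lists as the outcome, so it gives no independent background. All 38 members passed it with a gained region, whereas 2782 of these other genes passed it with lost regions only. The lists themselves were of similar length. These shares are descriptions and carry no p-value, because the members were chosen with results of these data known.

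The 5′ end of a gene is that of its longest annotated extent, which for 9 members lies more than 2500 bp from the start of the MANE Select transcript. PHGDH is the extreme, with 63523 bp between them. Measured from the MANE Select start, 30 of 48 members (62.5%) had a gained region within 2500 bp, against 6.55% of other genes with such a transcript (1246 of 19013), and 0 had a lost region, against 2.01% (382 genes). TRIB3, SLC3A2, PHGDH, MTHFD2, MARS1 and GARS1 then had a gained region at the start, and GDF15 no longer did. Altogether 31 members had a gained region by 1 or the other definition, in 36 regions. The gained regions sat on the start itself, since they covered the gene's 5′ end in 22 members and the MANE Select start in 28.

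**Figure D1:**
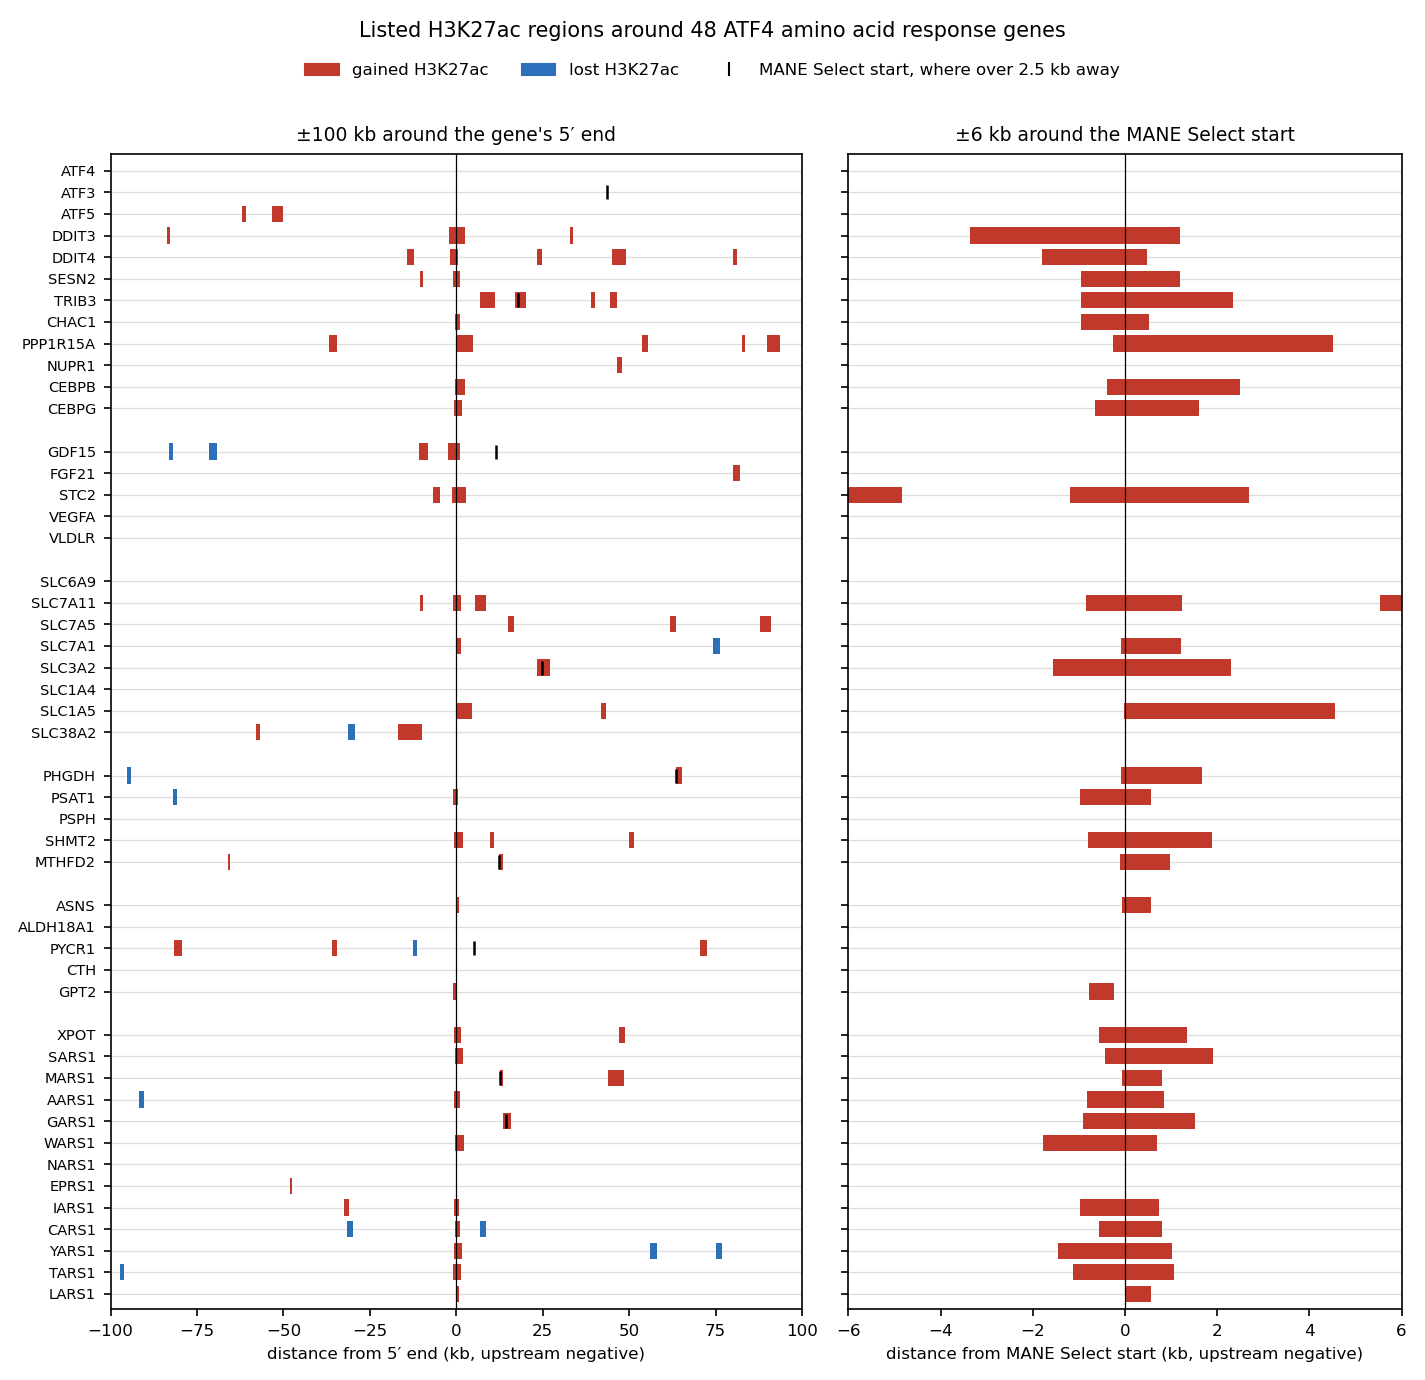
Listed H3K27ac regions around each member, from 100 kb upstream to 100 kb downstream of the gene's 5′ end (left, distance in kb) and within 6 kb of the MANE Select start (right, distance in kb), with gained regions in red, lost regions in blue and genes grouped by role in the order of the text. Gained regions stack on the start line in the right panel, which holds no lost region, and black ticks on the left mark MANE Select starts more than 2500 bp from the 5′ end. Regions narrower than 0.8 kb are widened to that size in the left panel.

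Over wider windows, which contain the start, a larger share of members than of other genes had a gained region. The share with a lost region was near the background within 100 kb and below it in narrower windows. Within 100 kb of the 5′ end, 38 of 48 members (79.2%) had a gained region, against 29.4% of other genes, and 10 (20.8%) had a lost region, against 20.4%. The 38 include the 25 with a gained region at the 5′ end. They also include TRIB3, SLC3A2, PHGDH, MTHFD2, MARS1 and GARS1, which had one at the MANE Select start. Only ATF5, NUPR1, FGF21, SLC7A5, SLC38A2, PYCR1 and EPRS1 had gained regions at neither start. A share without the start regions was not computed. Lost regions lay within 50 kb of 3 members (6.25%, against 11.7% of other genes) and within 25 kb of 2 (4.17%, against 6.73%), counts too small to set apart from the background. All 10 members with a lost region also had a gained one, so that 28 members had gained regions only, 0 had lost regions only and 10 had neither. Among the other genes, 22.8% had gained regions only, 13.9% lost regions only, 6.52% both and 56.7% neither. The members' surroundings held 76 gained regions and 13 lost regions, or 66 and 13 after abutting regions were joined. A member was the nearest protein-coding 5′ end for 45 of the 76 gained regions and 5 of the 13 lost ones, so that many of the more distant regions lay nearer to another gene.

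**Figure D2:**
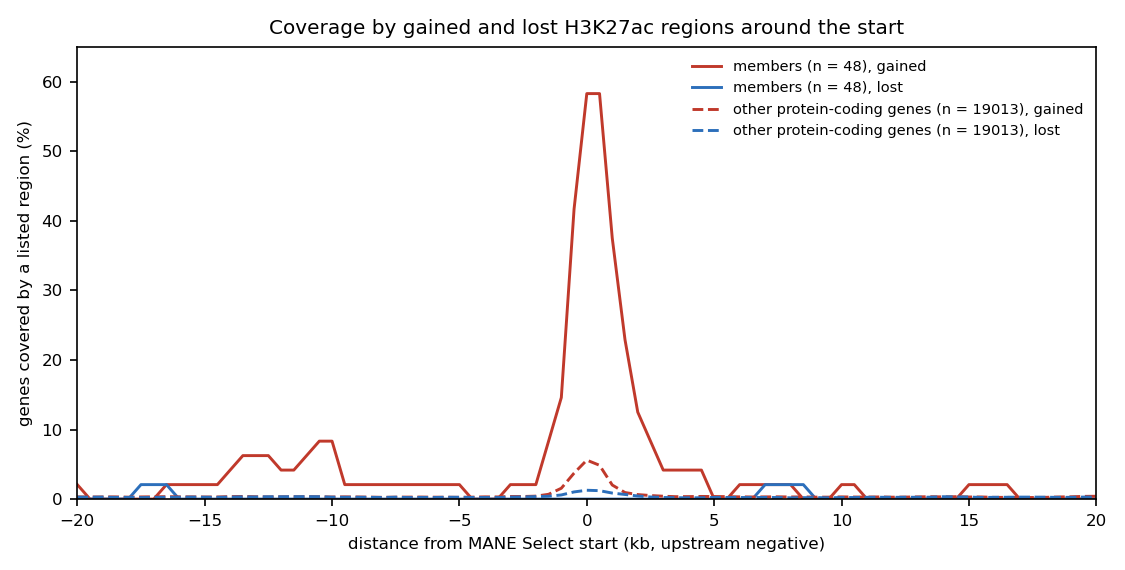
Percentage of genes whose position at a given distance from the MANE Select start (x axis, kb, upstream negative, every 500 bp) lay in a gained (red) or lost (blue) region, for 48 members (solid) and 19013 other protein-coding genes (dashed). At the start 58.3% of members and 5.60% of other genes lay in a gained region, and the members' curve fell to 14.6% at 1000 bp upstream and 37.5% at 1000 bp downstream.

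The coverage was asymmetric in the direction of transcription. At 500 bp downstream of the MANE Select start 58.3% of members lay in a gained region, as at the start itself, whereas at 500 bp upstream 41.7% did. The other genes showed 4.86% and 3.73% at the same positions. The 28 gained regions within 2500 bp of a member's 5′ end had a median width of 2133 bp (quartiles 1526 and 2484 bp), and the 1094 gained regions at starts of other genes only had a median of 1542 bp (1071 and 2000 bp). A wide acetylated domain can be cut into several abutting regions in these lists, as it was at DDIT3, TRIB3, PPP1R15A, STC2 and SLC1A5.

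The stress regulators had a gained region within 2500 bp of the 5′ end in 7 of 12 genes (58.3%), and in 8 (66.7%) from the MANE Select start. The genes were DDIT3, DDIT4, SESN2, CHAC1, PPP1R15A, CEBPB and CEBPG, joined by TRIB3 at its MANE Select start. DDIT3, which encodes the pro-apoptotic bZIP factor CHOP, had a pair of abutting gained regions (chr12:57519325-57521243 and chr12:57521244-57523876). Both also lay within 2500 bp of the starts of MBD6 and of an unnamed protein-coding gene that overlaps DDIT3 (ENSG00000285133), so that the regions cannot be given to DDIT3 alone. DDIT4, encoding the mTORC1 inhibitor REDD1, had a gained region of 2271 bp over its start (chr10:72272129-72274399), 1 more 12221 bp upstream, and 4 between 23184 and 79952 bp downstream, of which the 3 most distant lay nearer to DNAJB12. SESN2 encodes a leucine sensor that restrains mTORC1, and its start was covered by chr1:28258555-28260714, with another gained region 9571 bp upstream.

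TRIB3, a pseudokinase that binds AKT and ATF4, was covered from 959 bp upstream of its MANE Select start by a pair of abutting gained regions (chr20:379801-381270 and chr20:381271-383105). A second pair lay in an intron, 6761 bp and more upstream of that start (chr20:369729-371260 and chr20:371261-373999). CHAC1, which degrades glutathione, had a single gained region within 100 kb, over its start (chr15:40952506-40953984). PPP1R15A encodes GADD34, the subunit that directs a phosphatase to eIF2α and so ends the response, and abutting gained regions covered the whole gene (chr19:48872156-48874814 and chr19:48874815-48876934). Its other gained regions lay 34530 bp upstream, at HSD17B14, and from 53596 to 92408 bp downstream, in part at BAX and FTL. CEBPB and CEBPG, C/EBP family partners of ATF4, each had 1 gained region within 100 kb, over the start (chr20:50190434-50193333 and chr19:33373066-33375304).

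The other 4 stress regulators had no listed region at the start. ATF4 itself and ATF3, another bZIP factor of the response, had no listed region of either direction within 100 kb of the 5′ end. For ATF5, a relative of ATF4 under similar translational control, the nearest gained region lay 50076 bp upstream. For NUPR1, a small stress-induced nuclear protein, the nearest lay 46459 bp downstream, at APOBR and an unnamed gene. No stress regulator (0 of 12) had a lost region within 100 kb of the 5′ end, against 20.4% of other genes. A list of 12 genes is too small to set this apart from the background. For ATF3 the absence of a lost region depended on the start used, since its MANE Select start lies 43427 bp downstream of the 5′ end. A lost region nearest to BATF3 (chr1:212666899-212668776) lay just beyond 100 kb from the 5′ end of ATF3. It lay within 100 kb of the MANE Select start.

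Of the secreted factors and the receptor, GDF15 and STC2 (2 of 5) had a gained region at the 5′ end. GDF15 is a stress hormone that reduces appetite, and its gained regions lay upstream of its usual start. One covered the 5′ end of the gene (chr19:18372435-18375774) and ended 10384 bp short of the MANE Select start, and another lay 8322 bp further upstream than the 5′ end. GDF15 also had lost regions 69085 and 82008 bp upstream, the nearest genes to which were LSM4 and JUND. STC2, a secreted glycoprotein of the stanniocalcin family, had abutting gained regions over its start (chr5:173325730-173328494 and chr5:173328495-173329618) and a further region 4798 bp upstream (chr5:173333245-173335243). FGF21, a metabolic hormone, had only a gained region 79923 bp downstream, which lay at HSD17B14. VEGFA, the angiogenic growth factor, and VLDLR, a lipoprotein receptor, had no listed region within 100 kb.

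The transporters had gained regions at the start in 3 of 8 genes (37.5%) from the 5′ end and 4 (50.0%) from the MANE Select start. SLC7A11, the cystine-glutamate exchanger subunit xCT, had a gained region over its start (chr4:138241111-138243205), 1 in its body 5526 bp downstream and 1 that was 9822 bp upstream. SLC1A5, the neutral amino acid transporter ASCT2, had abutting gained regions from its start into the gene (chr19:46786153-46788619 and chr19:46784047-46786152). SLC7A1, the cationic amino acid transporter CAT1, had a gained region of 1305 bp over its start (chr13:29594480-29595784) and a lost region in an intron 74280 bp downstream (chr13:29519316-29521408), at the start of a shorter transcript, so that both directions occurred within 1 gene. SLC3A2, the heavy chain shared by xCT and LAT1, had a gained region of 3847 bp over its MANE Select start (chr11:62879342-62883188), 23338 bp downstream of the gene's 5′ end.

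SLC7A5, which encodes the light chain LAT1, had no gained region at its start, and its nearest lay in an intron 14845 bp downstream (chr16:87852763-87854662). SLC38A2, the sodium-coupled transporter SNAT2, had 3 abutting gained regions from 9825 bp upstream (chr12:46382598-46384769, chr12:46384770-46386769 and chr12:46386770-46389611), a lost region 29299 bp upstream and another gained region 56781 bp upstream. SLC38A2 was the nearest protein-coding 5′ end for all 5. SLC6A9, the glycine transporter GlyT1, and SLC1A4, the alanine and serine transporter ASCT1, had no listed region within 100 kb.

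In the serine and glycine group the count depended on which start was used, with 2 of 5 genes (40.0%) at the 5′ end and 4 of 5 (80.0%) at the MANE Select start. PHGDH catalyses the first step of serine synthesis, and a gained region of 1749 bp began 88 bp upstream of its MANE Select start and ran 1660 bp into the gene (chr1:119711846-119713594). PSAT1, the second step, had a gained region of 1542 bp over its start (chr9:78296140-78297681). PSPH, the last step, had no listed region within 100 kb. SHMT2, the mitochondrial enzyme that turns serine into glycine and a folate-bound carbon, was covered by chr12:57228905-57231592. MTHFD2, which oxidises that folate intermediate in mitochondria, had a gained region of 1106 bp from 119 bp upstream to 986 bp downstream of its MANE Select start (chr2:74198496-74199601). PHGDH and PSAT1 also had a lost region each, 94174 and 80701 bp upstream of the 5′ end, nearer to HSD3B1 and CEP78.

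Of the other amino acid enzymes, 2 of 5 had a gained region at the start. ASNS, asparagine synthetase, had a narrow one of 625 bp (chr7:97871849-97872473), which reached 65 bp upstream and 559 bp downstream of the MANE Select start. GPT2, the mitochondrial alanine aminotransferase, had one of 536 bp that lay 241 bp upstream of its start (chr16:46883586-46884121). ALDH18A1, which makes the precursor of proline, and CTH, which makes cysteine from cystathionine, had no listed region within 100 kb. PYCR1, the last step of proline synthesis, had a lost region 11354 bp upstream of its 5′ end, and its nearest gained region, 34653 bp upstream, lay at ASPSCR1.

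The tRNA group had a gained region in 9 of 13 genes (69.2%) at the 5′ end and in 11 (84.6%) at the MANE Select start. XPOT, the exporter of tRNA from the nucleus, was covered by chr12:64403836-64405741. Among the 12 aminoacyl-tRNA synthetases, which load tRNA with amino acids, 8 had a gained region at the 5′ end (66.7%) and 10 at the MANE Select start (83.3%). SARS1 for serine (chr1:109213474-109215824), IARS1 for isoleucine (chr9:92292971-92294673), CARS1 for cysteine (chr11:3056611-3057979), YARS1 for tyrosine (chr1:32816332-32818820) and TARS1 for threonine (chr5:33439841-33442026) were each covered at both starts. The same held for AARS1 for alanine (chr16:70288660-70290342) and WARS1 for tryptophan (chr14:100374650-100377132). LARS1 for leucine had a gained region of 559 bp that began 14 bp downstream of its MANE Select start (chr5:146182078-146182636). MARS1 for methionine (chr12:57488005-57488866) and GARS1 for glycine (chr7:30593967-30596390) were covered at the MANE Select start, 12623 and 14345 bp downstream of the 5′ end. The 2 synthetases without a gained region at the start were NARS1 for asparagine, with no listed region within 100 kb, and EPRS1 for glutamate and proline, whose nearest gained region lay 47577 bp upstream at IARS2.

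Starts of other genes lay within 2500 bp of some of these regions. AARS1 shared its region with DDX19B, WARS1 with WDR25, YARS1 with S100PBP and MARS1 with ARHGAP9, and a change at the neighbour cannot be told apart from one at the member. Given only to the nearest protein-coding 5′ end, gained regions within 2500 bp fell to 23 of 48 members (47.9%), against 5.11% of other genes, and AARS1 and WARS1 were the 2 lost from the count, which left 7 of 13 genes in the tRNA group beside 7 of 12 stress regulators. MARS1 and DDIT3 lie close together, and the region at the start of each was counted for both in the 100 kb window. Lost regions within 100 kb occurred around 4 of the 12 synthetases (33.3%, against 20.4% of other genes), a count too small to set apart from the background. All 4 also gained a region at the start. CARS1 had one in an intron 6925 bp downstream (chr11:3048914-3050688) and one 30012 bp upstream, YARS1 had them 55957 and 75194 bp downstream, AARS1 had one 90370 bp upstream and TARS1 one 96139 bp upstream.

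**Figure D3:**
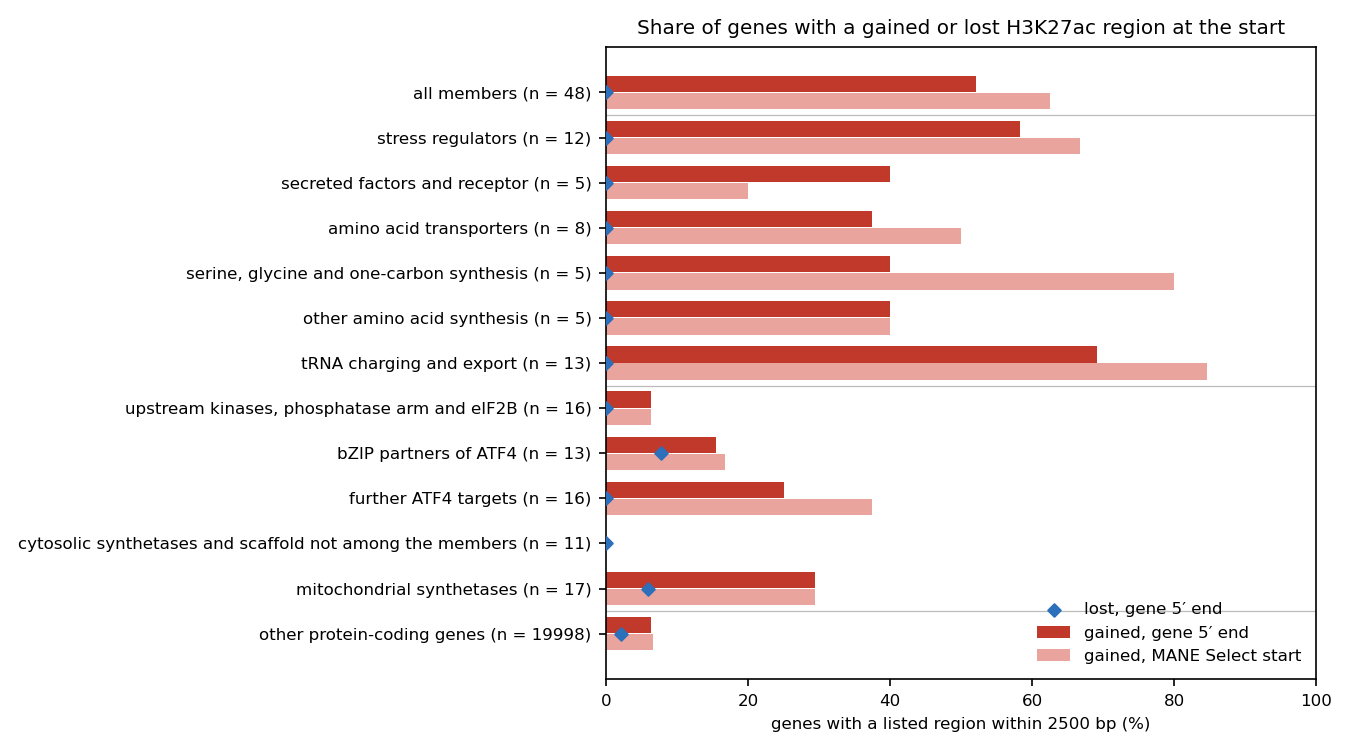
Percentage of genes with a listed region within 2500 bp (x axis, %) for all members, the 6 role groups, 5 further gene lists of the pathway and the other protein-coding genes, with gained regions as bars (dark from the gene's 5′ end, light from the MANE Select start) and lost regions at the 5′ end as blue diamonds. The tRNA group reached 69.2% and 84.6%, the cytosolic synthetases that are not members 0%, and the other protein-coding genes 6.28% and 6.55%.

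Other genes of the pathway were counted in 5 further lists of 73 genes, of which 12 (16.4%) had a gained region within 2500 bp of the 5′ end. Of 16 genes for eIF2α kinases, their activators, phosphatase subunits and eIF2B, only EIF2S2, the β subunit of eIF2, had one (chr20:34111304-34112873), and the share of 6.25% was that of the background. Of 13 bZIP partners and relatives, NFIL3 and XBP1 had a gained region (chr9:91419622-91422519 and chr22:28798806-28801084), whereas CEBPD, the C/EBPδ gene, had a lost one 496 bp downstream of its start. NFE2L2, which encodes the antioxidant regulator NRF2, had a gained region at its MANE Select start (chr2:177263059-177265879). Of 16 further ATF4 targets, EIF4EBP1, which encodes a translation inhibitor, PCK2, the mitochondrial PEP carboxykinase, SLC38A1, a glutamine transporter, and ATG12, an autophagy gene, had a gained region (4 of 16). SQSTM1 and MAP1LC3B, which encode an autophagy receptor and LC3B, had one at the MANE Select start (37.5% in all). The regions at ATG12 and MAP1LC3B also lay within 2500 bp of the starts of AP3S1 and FBXO31, respectively.

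The synthetases outside the members were counted by compartment. Of 11 cytosolic synthetases and scaffold proteins that are not members, 0 had a gained region within 2500 bp of either start, against 8 of 12 and 10 of 12 member synthetases. At the background share of 6.28%, a list of 11 genes would hold about 1, so the count of 0 is close to the background, and within 10000 bp 1 of the 11, the scaffold gene AIMP2, had a gained region (6410 bp downstream). The members were chosen as known ATF4 targets and partly with results in view, so that this contrast describes the lists and is not a test. Of 17 mitochondrial synthetases, 5 (29.4%) had a gained region, namely FARS2, IARS2, LARS2, VARS2 and YARS2. The region at FARS2 also lay within 2500 bp of the start of LYRM4. The regions at IARS2, LARS2 and VARS2 were narrow, with 509, 381 and 494 bp. CARS2 had a lost region 151 bp upstream of its 5′ end (chr13:110713754-110715367), which also lay within 2500 bp of ING1.

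The composite element TGATGCAA, searched on both strands, was common in the gained regions at member starts. It occurred in 19 of the 28 gained regions within 2500 bp of a member's 5′ end (67.9%), in 55 of the 1094 gained regions at the starts of other genes only (5.03%), in 10.1% of all gained regions and in 4.36% of all lost regions. Per length this was 0.396 copies per kb at members and 0.0368 per kb at the other starts. At MANE Select starts it occurred in 23 of 35 regions (65.7%), against 56 of 1183 (4.73%). Gained regions 2.5 to 100 kb from a member's 5′ end held it in 11 of 48 cases (22.9%), and the 13 lost regions within 100 kb held it in 0. These 48 are not all distant from a start. They include the regions at the MANE Select starts of TRIB3, SLC3A2, PHGDH, MTHFD2, MARS1 and GARS1. Those at TRIB3, PHGDH, MARS1 and GARS1 held the element, and a share without such regions was not computed. The members are known ATF4 targets, many of which are known through this element, so its presence is not independent of how they were chosen. A match describes letters and not binding by any factor.

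**Figure D4:**
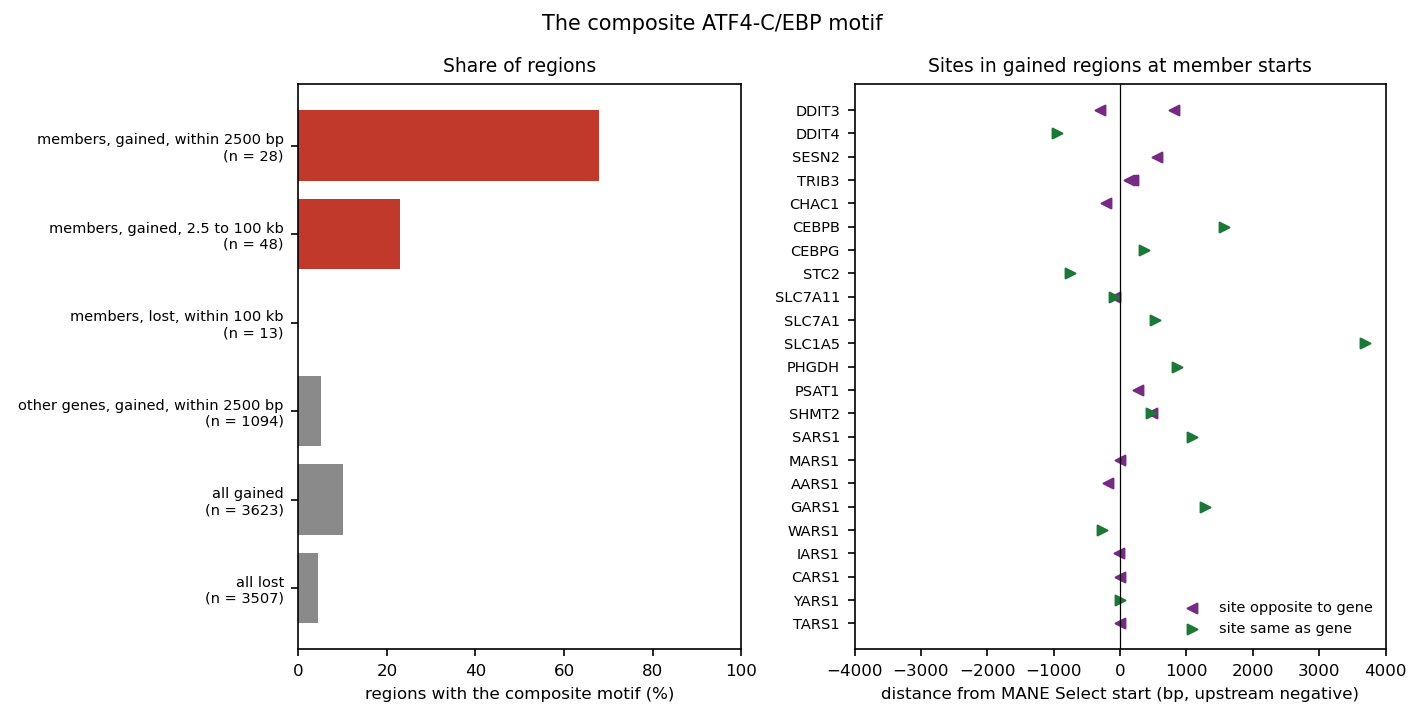
Left, percentage of regions that hold the composite element on either strand (x axis, %) for 6 sets of regions, with the number of regions in each. Right, distance of each of the 28 copies in gained regions at member starts from the MANE Select start (x axis, bp, upstream negative), with arrows for the strand relative to the gene. Copies at 67.9% of member start regions compare with 5.03% at the starts of other genes, and 18 of the 28 copies lie within 500 bp of the start.

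The gained regions at the starts of 23 members held 28 copies of the element, of which 24 lay within 1000 bp and 18 within 500 bp of the MANE Select start, at a median distance of 286 bp. Of these, 17 lay downstream and 11 upstream, and 13 read on the strand of the gene. The most distant was at SLC1A5, 3683 bp inside the gene, in the second of its abutting regions. TRIB3 held 3 copies and its start was the only gained region with more than 2, and DDIT3, SHMT2 and SLC7A11 held 2 each. Of the 31 gained regions with 2 or more copies anywhere in the genome, 4 (12.9%) lay at these 4 member starts. Among all lost regions, 6 held 2 or more copies and 2 held 3 or more, so 3 copies were not confined to gained regions.

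Gained regions at 4 further members, GPT2, MTHFD2, SLC3A2 and XPOT, held only the relaxed form TGATGNAA, which includes the strict one. The relaxed form occurred in 78.6% of member start regions and in 17.0% of gained start regions of other genes. ASNS, GDF15, LARS1 and PPP1R15A held neither within their gained regions. At ASNS the variant TGATGAAA of the printed promoter spanned the edge of the region. At PPP1R15A the palindrome TGACGTCA lay 58 to 51 bp upstream of the start, and this palindrome was the only copy in the 28 member regions (3.57%), against 4.75% of gained start regions of other genes. The endoplasmic reticulum stress element, a motif for ATF6 that contains no composite element, occurred in 0 of 28 and in 0.274%.

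Within the members, the element near the start was about as frequent with a gained region as without one. The element lay within 1000 bp of the MANE Select start in 30 of 48 members (62.5%) and in 668 of 19013 other genes (3.51%). Of the 30 members that gained H3K27ac there, 19 held the element (63.3%), and of the 18 that did not, 11 held it (61.1%). These 11 were ATF3, NUPR1, FGF21, VLDLR, SLC6A9, SLC7A5, SLC1A4, SLC38A2, PYCR1, NARS1 and EPRS1, and ATF3 held 2 copies. Among other genes, 7.63% with the element had a gained region (51 of 668) and 6.51% without it (1195 of 18345). A lost region was present in 0.299% with the element (2 genes) and 2.07% without it. In RefSeq promoters the element occurred in 8 of 39 members (20.5%) and in 0.627% of 15306 other promoters of the same 300 bases.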

How the data were processed

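H3K27ac ChIP-seq was performed in 8 of the 16 libraries, with 4 biological replicates in each arm. According to the study's methods, reads were mapped to hg38 with Chromap, peaks were called for each replicate with MACS2 (2.1.1.20160309 in the submitters' processing notes) and input DNA as the control, and these were divided into bins and compared between arms over all replicates with MAnorm2. The deposited files are the 2 resulting lists, and the authors' values used here are chromosome, start and end only, with no unused sample columns. The list names carry an adjusted p of 0.15, whereas the methods name a stricter one, so that some regions may be weaker calls than the methods imply. Wide peaks are cut into bins, so 1 domain can count more than once. Depth per region is unknown, and no interval of the signal can be given.

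The members, role groups and pathway lists were chosen with earlier results of these data known. Genes came from GENCODE release 44, starts were counted from 1, and a region was given to every gene whose 5′ end lay within 2500 bp or 100 kb of any base of the region. MANE Select starts were added as an alternative after the data were seen. Members without a listed region are named only, and for each other member the regions at the start, or else the nearest one, are given. A non-member is named where its start lies within 2500 bp of a region counted for a member or at the start of a pathway gene. It is also named where it is in a pathway list and has such a region. Motifs were exact matches on either strand in hg38, read with pysam 0.24.0, and in RefSeq promoters of 250 bases before and 50 after the start. NUPR1, VEGFA, SLC7A11, PSPH, SHMT2, PYCR1, GPT2, YARS1 and LARS1 had no match among these promoters. Counts were made in Python 3.11.15 with pandas 2.3.3 and tested on simulated regions, and no test between groups was made, since the lists hold no value per library. Windows, start definitions, the background and the motif were varied, as given in the closing section.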

Additional observations from a re-analysis of the deposited data

How the results depend on the processing

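Of 43 alternatives to the main counts and shares, 30 stayed within 1.5 times the count or within the 95% Wilson interval of the share. The count of 25 members with a gained region at the start ranged from 23 (nearest protein-coding 5′ end only) to 31 (5′ ends of all transcripts), and the 38 within 100 kb from 29 to 38. The members with a lost region at the start numbered 1 in place of 0 with a window of 10000 bp (CARS1) or with all transcripts (SLC7A1). The 10 with a lost region within 100 kb became 3 within 50 kb, 2 within 25 kb and 4 when regions were given to the nearest gene only. From the MANE Select start the count was again 10, but with ATF3 in place of PHGDH. The background of 6.28% gained was 8.95% among CpG-rich promoters, where 57.1% of the 35 members with such a promoter were gained, 14.5% among genes with any listed region within 100 kb, where 65.8% of 38 members were, and 8.07% with all transcripts, where 64.6% of members were. The background of 2.03% lost was 4.68% among genes with any listed region and 3.44% with all transcripts. The filter on any listed region draws on the same lists as these shares and is no independent background. With any base at the sixth position of the motif, 1175 of all gained and 838 of all lost regions held it, in place of 367 and 153, and 73 lost regions held the strict motif in their central 1000 bp. No other main count or share moved past these limits, the cause was not tested for those that did, and MANE Select starts, all transcripts for the background and the MANE motif count were chosen after seeing the data. No paired analysis was possible because no region has a measurement for any single library. This also meant that leaving out a replicate or applying a stricter threshold could not be run, so the strength of a single call cannot be judged.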

Other observations

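Outside these genes, 9 gained regions held 2 or more copies of the composite element and lay within 2500 bp of a gene's start, and they are named here after their values were seen. HSPA5, which encodes the endoplasmic reticulum chaperone BiP, had a gained region with 2 copies 1624 bp from its start (chr9:125243006-125244809). XBP1, the factor spliced in the unfolded protein response, had one over its 5′ end (chr22:28798806-28801084). GADD45A, a stress and DNA damage gene, had one 1137 bp away (chr1:67686338-67688337). The others were BTF3L4 and TXNDC12, which shared 1 region (chr1:52054956-52056880), EIF1, which encodes a start codon selection factor (chr17:41688108-41690336), HKDC1, CARD16, PXK and TMEM267. VEGFA, with no listed region within 100 kb, was the nearest gene to a gained region with 2 copies 155441 bp away (chr6:43925625-43927719), and STC2 to one 4798 bp upstream. Whether these regions respond through ATF4 was not tested.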
